A study of Mus musculus with 5 samples.

Results

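Glutathione transferases are enzymes that join the tripeptide glutathione to reactive, often toxic molecules. The genes described here are 10 named members of that family, Gstt1, Gstt2, Gstt3, Gsta4, Gstm1, Gstm5, Gstp1, Gsto1, Mgst1 and Mgst3, out of 22180 genes measured. Each was read from the brightest probe set (a group of probes summarised to 1 value) paired with its symbol alone, and 9 of the 10 had one. Gstm5 shares its probe set with a second gene and was not analysed here. The set was chosen on the log2 values of this comparison between genotypes, with Gstt1 singled out, so the members' own differences are given as a description with no test.

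Cells bearing the erythroid antigen Ter119 were selected from bone marrow after magnetic depletion of cells bearing CD45, the leukocyte antigen. The Polg mutant group (3 arrays) carried the Polgtm1Lrsn allele in both copies (mt/mt), and the WT group (2 arrays) carried none (wt/wt). Polg encodes the mitochondrial DNA polymerase, and the allele removes its proofreading, so that mitochondrial DNA gathers mutations. All animals were of C57BL/6 background and came from one kind of cross, in which both parents were Atg7 flox/flox and heterozygous for the Polg allele and the father carried 1 Epo-cre knock-in allele. The labels do not state which arrays came from Cre carriers, how old the mice were or when they were bled, though the series title speaks of aged mutator mice. The design text calls the mice phlebotomized, while the treatment field of the labels reads none. Separate animals are not stated for the arrays of a group, so a p-value reflects how much these arrays vary, and that variation may be technical.

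The cytosolic transferases fall into classes named by Greek letters, among them alpha, mu, pi, theta and omega, while the microsomal ones (Mgst) are unrelated membrane proteins of the MAPEG family. Glutathione is the main thiol of red cells, made from cysteine, glutamate and glycine. In human red cells a pi-class enzyme is the main transferase, and a theta-class enzyme, GSTT1, is present and absent in people who lack the gene.

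Gstt1, which handles small halogenated compounds and lipid hydroperoxides, was the member set furthest below WT, and Gstp1, the pi-class gene, the one furthest above it. Because the 250 bases before the annotated start were available for both, and for Gsto1, whose groups also did not overlap, they are shown here from RefSeq (build GRCm38.p6), 5′ to 3′ on the gene's own strand, for comparison of the genes that differed in opposite directions. No such window was available for Gstt2, whose groups did not overlap either, so Gstt1 is the only lower member shown. Capitals mark the TGANTCA core bound by AP-1 and by the erythroid factor NF-E2.

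Gstt1 (chr10:75797732-75797981, minus strand): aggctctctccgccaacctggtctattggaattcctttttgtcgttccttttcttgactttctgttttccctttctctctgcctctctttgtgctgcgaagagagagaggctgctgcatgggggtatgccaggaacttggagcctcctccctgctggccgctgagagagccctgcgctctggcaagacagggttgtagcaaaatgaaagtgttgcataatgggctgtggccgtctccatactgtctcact

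Gstp1 (chr19:4037913-4038162, minus strand): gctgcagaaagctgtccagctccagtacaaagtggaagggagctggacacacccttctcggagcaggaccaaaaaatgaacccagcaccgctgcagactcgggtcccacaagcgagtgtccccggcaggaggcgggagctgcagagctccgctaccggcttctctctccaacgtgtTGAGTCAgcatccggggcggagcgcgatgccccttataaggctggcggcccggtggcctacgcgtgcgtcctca

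Gsto1 (chr19:47854723-47854972, plus strand): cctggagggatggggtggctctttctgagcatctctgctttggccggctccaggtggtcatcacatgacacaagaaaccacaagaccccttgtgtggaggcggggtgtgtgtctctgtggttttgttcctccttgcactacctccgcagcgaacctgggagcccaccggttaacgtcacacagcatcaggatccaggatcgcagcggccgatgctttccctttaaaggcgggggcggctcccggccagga

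The Gstp1 window holds 1 TGANTCA match, which begins 74 bases before the start, and the Gstt1 and Gsto1 windows hold none. This motif reads the same on both strands and was added after the sequence had been read, and 6.75% of all 32851 promoter windows of that length hold it. The antioxidant response element core, TGACNNNGC, through which NRF2 acts, was searched on both strands and can overlap TGANTCA. It was in 1 of the 10 windows of the 7 members that have one, a window of Mgst1, against 10.2% of all windows. With the bases that follow it, the Gstp1 match reads TGAGTCAGC, which departs from TGACNNNGC only by a G in place of the C. Wider forms of the antioxidant core were not searched, so the count does not cover such sites. The C/EBP-ATF response element, TGATGNAAT, also searched on both strands, was in 0 of the 10, against 0.816% of all windows.

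The arrays had medians between 5.10 and 5.13 on the log2 scale and 41345 probe sets each. The 11 erythroid markers measured of 13 lay high, with means over all arrays between 10.39 for Gata1 and 13.44 for Slc4a1. Ptprc, the gene of CD45, read 7.67, 7.40 and 6.06 in Polg mutant arrays and 7.13 and 6.43 in WT arrays. Mean levels of the 18 neutrophil markers were 8.25, 8.70 and 7.11 in Polg mutant arrays, against 7.83 and 6.91 in WT arrays. Granulocyte transcripts thus varied within both groups, and the median difference of the list was 0.67. Without overlap, 1 was higher (Chil3, by 1.73 ± 0.37, SE, limma adjusted p = 0.303) and 0 lower, beside 8.36% and 9.73% of all genes. The part of these transcripts in the values below was not tested. Polg read 6.97 on all 5 arrays, and since the allele alters the protein's sequence, this level does not check the labels. Of all genes, 67.9% had an identical value on at least 2 arrays. The typical SD to which limma shrinks each gene's was 0.038 over all genes and 0.17 over genes with 5 distinct values.

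Gstt1 read 6.91, 6.91 and 7.32 in Polg mutant arrays, against 8.57 and 8.57 in WT arrays. All Polg mutant arrays lay below both WT arrays, with a gap of 1.24 between the nearest 2. Means were 7.05 ± 0.24 in the Polg mutant (SD, n = 3) and 8.57 ± 0.002 in WT (SD, n = 2), a difference of -1.52 ± 0.16 (SE), or 2.86-fold lower. Only 8 of 22180 genes, Gstt1 included, had a difference as low. In a bulk sample, fewer cells that express a gene and less RNA per cell cannot be told apart. The erythroid marker list was itself lower in the Polg mutant, by a median of 0.31 log2 units. In 10 of its 11 genes the groups did not overlap, beside 9.73% lower without overlap among all genes. The gaps were small, from 0.020 (Klf1 and Epb42) to 0.214 (Kel). The part of this list in the Gstt1 value was not tested.

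Gstt2, a second theta-class gene of the same cluster, read 4.43, 5.04 and 4.74 in Polg mutant arrays and 6.26 and 5.92 in WT arrays. The groups again did not overlap, and the difference was -1.36 ± 0.23 (SE), the 18th lowest of all genes. The Polg mutant values lay below the array medians, where signal cannot be told from background in these data, so the fold of 2.56 may understate the difference. Gstt3, the third theta gene, read 5.23, 5.23 and 5.04 in Polg mutant arrays and 5.45 and 5.21 in WT arrays. These groups overlapped, the difference was -0.16 ± 0.11 (SE), and all levels lay near the array medians. Within the theta class, Gstt1 minus Gstt2 was 2.31 ± 0.38 in the Polg mutant and 2.48 ± 0.24 in WT, whereas Gstt1 minus Gstt3 was 1.88 ± 0.35 in the Polg mutant and 3.23 ± 0.17 in WT (log2, SD, n = 3 and 2).

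Gstp1, whose protein also binds and restrains stress kinases, read 11.25, 10.17 and 10.82 in Polg mutant arrays, against 8.91 and 9.52 in WT arrays. Every Polg mutant array was above both WT arrays, by at least 0.66 log2 units. The group means were 10.75 ± 0.54 in the Polg mutant (SD, n = 3) and 9.22 ± 0.43 in WT (SD, n = 2), a difference of 1.53 ± 0.41 (SE), or 2.89-fold higher. It varied more within each group than Gstt1 did. Mouse Gstp1 has closely related copies, Gstp2 and Gstp3, which the probes may not separate, and 1 further probe set annotated to both Gstp1 and Gstp2 was left out.

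The remaining members differed by 0.30 log2 units or less. Gsto1, an omega-class gene whose product reduces dehydroascorbate, read 7.94, 7.40 and 7.40 in Polg mutant arrays and 7.38 and 7.25 in WT arrays. Its groups did not overlap, but by a gap of only 0.021, and the difference of 0.27 ± 0.21 (SE) rested mostly on Polg mutant replicate 1. Gstm1, of the mu class, read 6.60, 6.27 and 6.25 in Polg mutant arrays and 6.25 and 5.91 in WT arrays, with groups that overlapped and a difference of 0.29 ± 0.17 (SE). Polg mutant replicate 1 was the highest array for Gstp1, Gsto1, Gstm1 and Mgst1 alike.

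Gsta4, the alpha-class gene that conjugates the lipid peroxidation product 4-hydroxynonenal, read 5.29, 5.29 and 5.38 in Polg mutant arrays and 5.26 and 5.54 in WT arrays. The difference of -0.08 ± 0.10 (SE) was smaller than the spread between the WT arrays, and it was 0.063 without WT replicate 2. Mgst1, a microsomal transferase and peroxidase, read 6.59, 6.35 and 6.29 in Polg mutant arrays and 6.35 and 6.24 in WT arrays, a difference of 0.11 ± 0.11 (SE). Mgst3, a microsomal glutathione peroxidase, read 9.49, 9.45 and 9.57 in Polg mutant arrays and 9.38 and 9.82 in WT arrays. Its WT arrays lay on either side of the Polg mutant arrays, so the sign of the difference, -0.09 ± 0.15 (SE), turned to 0.12 without WT replicate 2. In these 3 genes the groups overlapped.

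**Figure D1:**
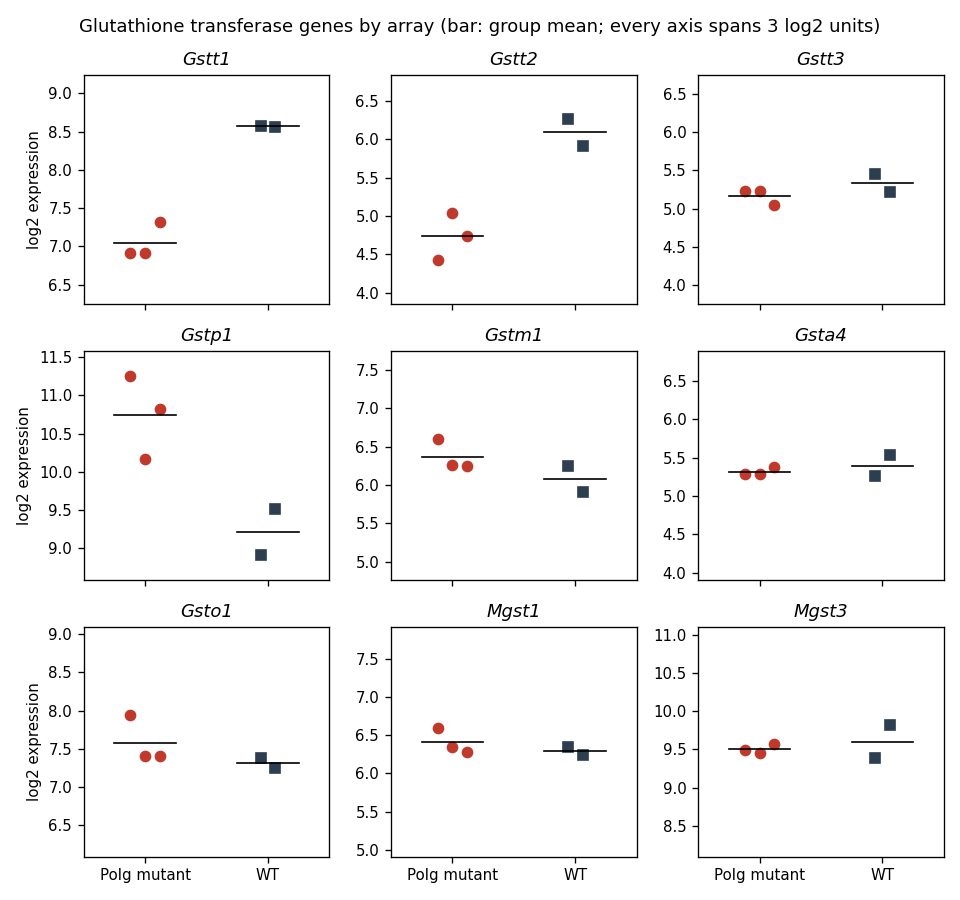
Log2 expression of the 9 measured members on every array, with Polg mutant arrays as circles, WT arrays as squares and group means as lines, on axes that each span 3 log2 units. Gstt1 and Gstt2 lay lower and Gstp1 higher on all 3 Polg mutant arrays than on both WT arrays, while Gstt3, Gstm1, Gsta4, Mgst1 and Mgst3 overlapped and Gsto1 was apart by 0.021.

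Of the 9 members, 2 (Gstp1 and Gsto1) lay higher on every Polg mutant array than on both WT arrays, and 2 (Gstt1 and Gstt2) lower, beside 8.36% higher and 9.73% lower among all genes. Since the members were chosen on this contrast, nothing is read from these shares. Set against the mean of the other 8 measured members on the same array, Gstt1 was at -0.19, 0.02 and 0.39 in Polg mutant arrays and at 1.66 and 1.64 in WT arrays. The groups did not overlap, and the difference was -1.58. The mean of those other 8 was itself 7.10, 6.90 and 6.94 in Polg mutant arrays and 6.91 and 6.92 in WT arrays, a difference of 0.06, because Gstp1 and Gstt2 lay on opposite sides. Of the single members, Gstp1 was the one against which Gstt1 differed most: Gstt1 minus Gstp1 was -4.34, -3.26 and -3.49 in Polg mutant arrays and -0.34 and -0.95 in WT arrays.

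Family genes outside the 10 were tested with limma in the fit over all genes. Of 21 listed, 17 were measured, and 0 passed at an adjusted p under 0.05 (smallest 0.341), as 0% of all genes did. Their median difference was 0.08, against 0.00 for all genes. At an unadjusted p under 0.05, 1 was higher and 0 lower, where 4.18% of all genes were higher and 5.33% lower. The 1 gene was Gstp3, at 9.25, 8.61 and 8.85 in Polg mutant arrays and 7.29 and 7.95 in WT arrays, a difference of 1.29 ± 0.31 (SE, limma adjusted p = 0.341). Its neighbour Gstp2 read 9.65, 8.52 and 8.84 in Polg mutant arrays and 7.52 and 8.13 in WT arrays, with a difference of 1.18 ± 0.44 (SE, limma adjusted p = 0.577). The groups overlapped in neither gene, and in each of the 3 pi-class genes Polg mutant replicate 1 was highest and WT replicate 1 lowest. Cross-hybridisation among these copies was not tested. Without WT replicate 1, Gstm2 and Gstm4 passed the threshold, each with an identical value on all 3 Polg mutant arrays. The Gstp2 promoter window holds a TGANTCA match too, 89 bases before the start, and the Gstp3 window none. The only other family window with that motif is that of Mgst2, 52 bases before the start of a gene that read the same on all 5 arrays.

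The mu genes beside Gstm1 sat near or below the array medians. Gstm2, Gstm3, Gstm4 and Gstm6 had differences of -0.04, 0.10, 0.08 and 0.08, and Gstm7 read 4.20 on all 5 arrays. Gsta3 (0.13), Gstt4 (-0.03) and Gsto2 (-0.02) were also low on the scale. Gstk1, a transferase of mitochondria and peroxisomes, differed by 0.24, and Gstcd by -0.06. The MAPEG relatives Alox5ap (the 5-lipoxygenase partner), Ptges and Ltc4s differed by 0.16, -0.12 and -0.03, and Mgst2 read 5.32 on all 5 arrays. Hpgds, a sigma-class prostaglandin D synthase, differed by 0.14. In all of these the groups overlapped and none passed (limma adjusted p of 0.638 or more).

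**Figure D2:**
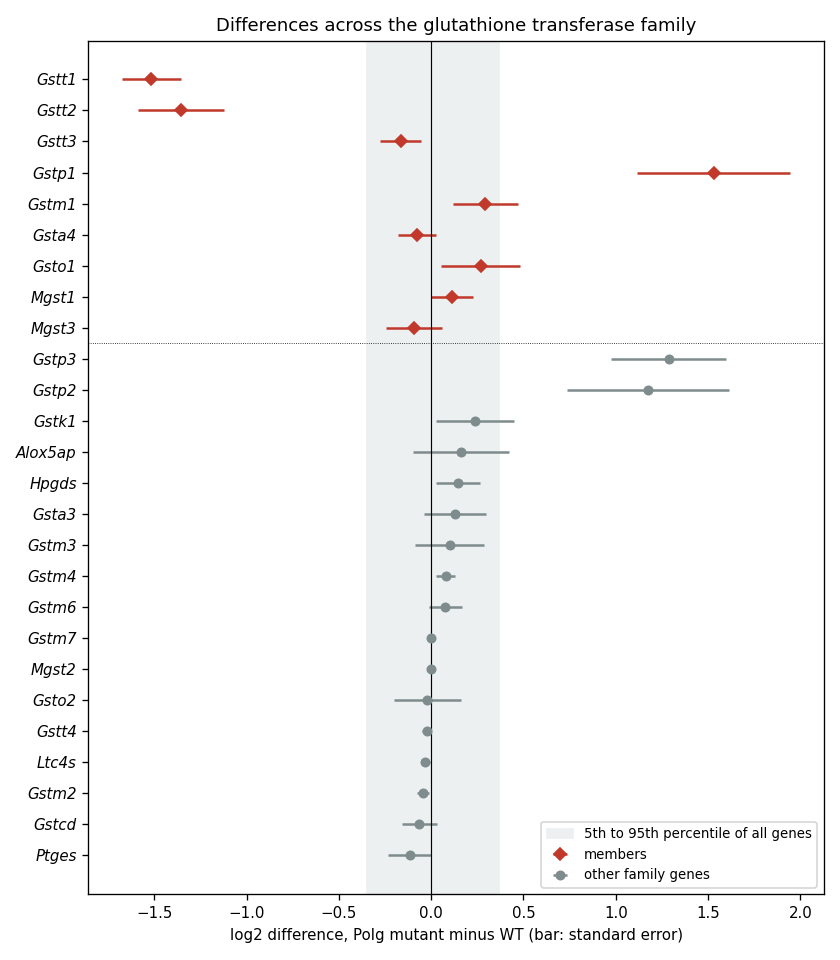
Log2 difference, Polg mutant minus WT, with its standard error for the 9 measured members (diamonds) and 17 other family genes (circles), over a grey band from the 5th to the 95th percentile of all genes (-0.35 to 0.37). Gstt1 and Gstt2 lie below the band and Gstp1, Gstp2 and Gstp3 above it, with all others inside.

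The theta genes lie side by side on chromosome 10, so the genes within 200 kb of Gstt1 in the RefSeq annotation were read as well. In chromosome order the nearest are Ddt, Gstt3, Gstt1, Gstt4, Gstt2 and Mif. Ddt and Mif encode related tautomerases, and Mif is also a cytokine. Ddt read 6.63, 6.14 and 6.23 in Polg mutant arrays and 5.80 and 5.77 in WT arrays, and Mif read 8.39, 8.17 and 8.12 in Polg mutant arrays and 7.44 and 7.80 in WT arrays. Both were higher on every Polg mutant array, by 0.55 ± 0.18 and 0.60 ± 0.15 (SE, limma adjusted p = 0.477 and 0.370), whereas Gstt1 and Gstt2 between them were lower. Gstt4, which lies between Gstt1 and Gstt2, read 4.30 on 4 arrays and 4.35 on WT replicate 1.

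Farther out, Susd2, a membrane protein gene, read 9.11, 8.59 and 9.10 in Polg mutant arrays and 7.76 and 7.86 in WT arrays, a difference of 1.12 ± 0.20 (SE, limma adjusted p = 0.267). Vpreb3, a B-cell gene, differed by -0.17 ± 0.05, Smarcb1, a chromatin remodelling subunit, by -0.19 ± 0.08 and Cabin1, a calcineurin-binding protein gene, by -0.10 ± 0.05, each lower on every Polg mutant array. The gaps between their groups were only 0.087, 0.028 and 0.010. Derl3, Mmp11, Chchd10, Ggt5 and Gm5134 overlapped, with differences from -0.16 to 0.18. Of the 12 measured neighbours that are not members, 3 were higher and 3 lower without overlap, and 0 passed with limma (3 higher and 1 lower at an unadjusted p under 0.05). Over all genes the groups did not overlap in 8.36% higher and 9.73% lower, and 4.18% were higher and 5.33% lower at that unadjusted p. The median difference of the 12 was 0.04, against 0.00 over all genes. Without WT replicate 1, the differences of Chchd10, Derl3 and Mmp11 were 0.20, -0.33 and 0.35, and without WT replicate 2, that of Ggt5 was 0.11. These genes were nearly constant over the Polg mutant arrays (SD 0.000, 0.003, 0.004 and 0.005). A fit with 1 WT array takes its spread from the Polg mutant group, so nothing is read from its calls.

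**Figure D3:**
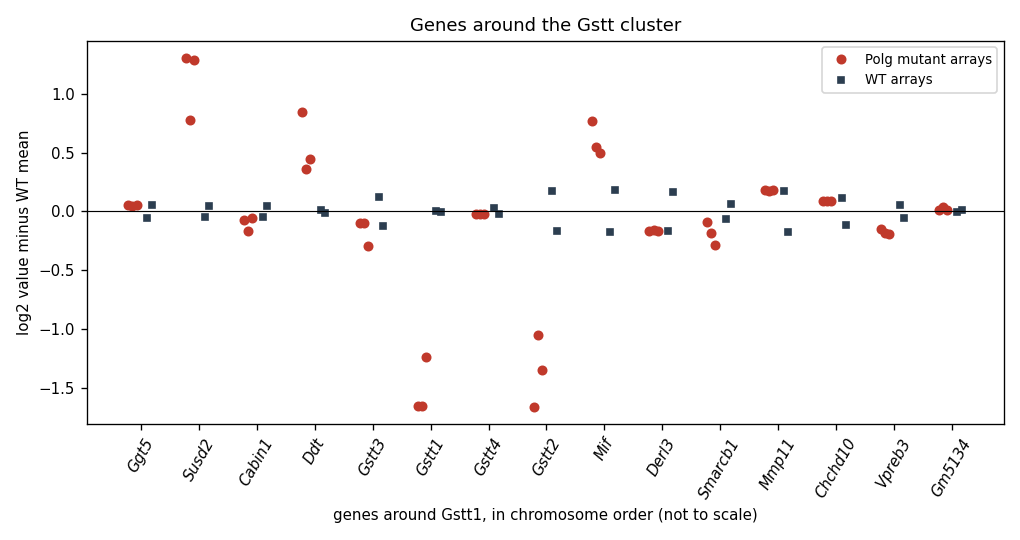
Log2 values minus the WT mean for the measured genes around Gstt1, in chromosome order and not to scale, with 3 Polg mutant arrays as circles and 2 WT arrays as squares. Gstt1 and Gstt2 lie more than 1 log2 unit below 0 on every Polg mutant array, while Ddt, Mif and Susd2 lie above 0 on every Polg mutant array.

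The genes that supply glutathione were read next. In the list for cysteine supply and synthesis, 3 of 6 genes were higher and 1 lower without overlap, and 0 passed with limma (3 higher and 0 lower at an unadjusted p under 0.05). The shares over all genes were 8.36% higher and 9.73% lower without overlap, and 4.18% and 5.33% at the unadjusted p. The median difference of the 6 was 0.42. The cystine importer gene Slc7a11 (3.87 ± 0.161) and Cth, which makes cysteine (3.71 ± 0.335), had the largest differences of all genes (SE, limma adjusted p = 0.103 and 0.193). Their WT means of 4.155 and 4.020 lay below the array medians, where signal cannot be told from background. The size of these differences is therefore uncertain. Gss, which completes glutathione, read 7.52, 7.16 and 7.16 in Polg mutant arrays and 6.52 and 6.38 in WT arrays, a difference of 0.83 ± 0.15 (SE, limma adjusted p = 0.265). Of the 2 subunits of the rate-limiting ligase, Gclc differed by -0.14 ± 0.07 (SE), with groups that did not overlap, and Gclm by -0.06 ± 0.08 (SE), with groups that did. Without WT replicate 1, the differences of Slc7a11, Cth and the NADPH-making Me1 of the NRF2 list were 3.65, 4.08 and -0.20. Without WT replicate 2, those of Slc7a11 and of Ggt5 and Nat8 of the breakdown list were 4.09, 0.11 and 0.09. Me1, Ggt5 and Nat8 lay below the array medians and varied little over the Polg mutant arrays (SD 0.017, 0.005 and 0.000).

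Among 12 measured genes that reduce or use glutathione, 4 were higher and 2 lower without overlap, beside 8.36% and 9.73% of all genes, and the median difference was -0.02. Gpx1, the main red cell glutathione peroxidase, read 12.50, 12.47 and 12.39 in Polg mutant arrays and 12.17 and 12.22 in WT arrays (difference 0.25 ± 0.04, SE, limma adjusted p = 0.260). Gpx4, which reduces lipid hydroperoxides, differed by 0.30 ± 0.11, and the glyoxalase gene Hagh by -0.16 ± 0.07. Glrx5, a mitochondrial glutaredoxin of iron-sulfur assembly, differed by -0.13 ± 0.03. Gsr, which regenerates reduced glutathione, differed by -0.04 ± 0.13, less than the spread between arrays. With limma 0 passed, and 1 was higher and 1 lower at an unadjusted p under 0.05, beside 4.18% and 5.33% of all genes.

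In the list for conjugate export and glutathione breakdown, 19 genes were measured, with 2 higher and 1 lower without overlap and 0 past the adjusted threshold (2 higher and 1 lower at an unadjusted p under 0.05, with limma). These counts lie near the shares over all genes, 8.36% higher and 9.73% lower without overlap and 4.18% and 5.33% at the unadjusted p, and the median difference was 0.00. Chac1, which cleaves glutathione in the cytosol, read 7.59, 8.36 and 7.84 in Polg mutant arrays and 6.34 and 5.66 in WT arrays, a difference of 1.93 ± 0.35 (SE, limma adjusted p = 0.266). Abcc5, a conjugate and nucleotide exporter gene, read 6.58, 6.66 and 6.38 in Polg mutant arrays and 7.10 and 7.15 in WT arrays, a difference of -0.59 ± 0.10 (SE, limma adjusted p = 0.256). Lap3, a leucine aminopeptidase, differed by 0.52 ± 0.14 and the dipeptidase gene Dpep2 by 0.20 ± 0.12.

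Many transferase genes are known targets of the transcription factor NRF2 (Nfe2l2), which KEAP1 holds in check. Nfe2l2 read 9.32, 9.34 and 9.37 in Polg mutant arrays and 9.48 and 9.34 in WT arrays. Keap1 lay lower on every Polg mutant array (difference -0.28 ± 0.13, SE, limma adjusted p = 0.638). Bach1, a repressor of NRF2 targets, read 8.87, 8.84 and 8.80 in Polg mutant arrays and 8.47 and 8.51 in WT arrays (difference 0.35 ± 0.03, SE, limma adjusted p = 0.193). Srxn1, a target gene, differed by 0.32 ± 0.14 (SE), with groups apart by only 0.007. Of 19 measured genes 4 were higher and 2 lower without overlap, the median difference was -0.01 against 0.00 over all genes, and 0 passed with limma (2 higher, 0 lower at an unadjusted p under 0.05). Over all genes 8.36% were higher and 9.73% lower without overlap, and 4.18% and 5.33% at the unadjusted p. Slc7a11, Gclc and Gclm are also in the synthesis list.

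**Figure D4:**
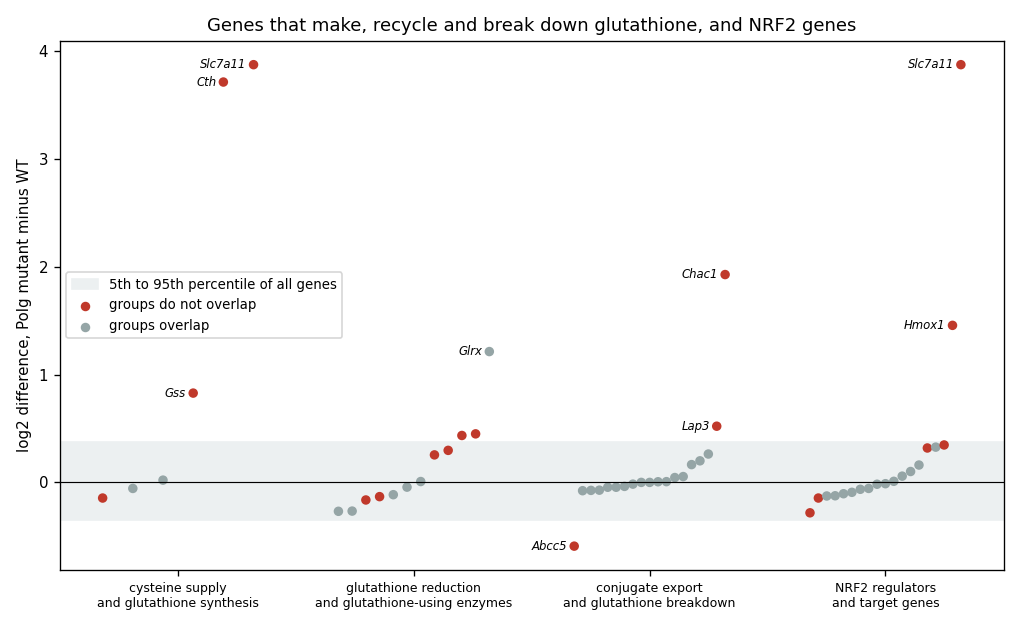
Log2 difference, Polg mutant minus WT, of each measured gene in 4 lists, over a grey band from the 5th to the 95th percentile of all genes, with genes whose groups do not overlap in red and those past 0.5 in either direction named. Slc7a11, Cth, Chac1, Hmox1, Glrx (whose groups overlap), Gss, Lap3, Glrx3 and Glo1 stand above the band and Abcc5 below it, with the other genes inside.

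Likeness to Gstt1 over the 5 arrays was measured by the root mean square difference of values centred on each gene's mean. Genes with provisional symbols (such as RIKEN, Gm and LOC) or with Olfr, Vmn, Mir or Snor symbols were set aside. The 5 genes most like Gstt1 were taken from the rest. They were Capn5 (0.158 log2 units), a calpain gene, Snx22 (0.167), a sorting nexin gene, Abcb9 (0.185), a lysosomal peptide transporter gene, Gp9 (0.191), a platelet glycoprotein gene, and Acp5 (0.207), an acid phosphatase gene. Their differences ran from -1.19 for Abcb9 to -1.46 for Acp5. This centring keeps the difference between the groups, so genes chosen this way must differ by about as much as Gstt1. Gp9 read 8.84, 9.23 and 9.11 in Polg mutant arrays and 10.42 and 10.41 in WT arrays, while the other 5 measured megakaryocyte markers overlapped between the groups.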

How the data were processed

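The deposited values are log2 expression from 1-colour Affymetrix whole-transcript arrays, 1 column each, and they run from 1.43 to 14.07, which is where the scale was taken from. The submitters' processing notes name RMA and Partek 6.5 without saying what each did. A genome build for the probes is not given in the sources used here. No further scaling was applied. Signal over background is unknown without scanner output, and the number of arrays limits the precision. The platform annotation gave 1 symbol to 23521 probe sets, several to 1814 and none to 16010; 22180 genes with a single-symbol probe set were kept, the brightest for each.

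The genotypes were contrasted by limma 3.58.1 under R 4.3.3 (lmFit and eBayes, genotype as the only term, all 5 arrays, two-sided, Benjamini-Hochberg over all genes, threshold 0.05). The exact permutation test of 1 gene could not go below p = 0.1. The script was tested on simulated data. The members and the gene lists were chosen with earlier results of these data known. Named were all members, other family genes, neighbours of Gstt1, the 5 genes most like Gstt1, Polg and Ptprc. From each glutathione or NRF2 list, up to 4 genes by smallest p were named, with Gclc, Gclm, Gss, Gsr, Slc7a11, Nfe2l2 and Keap1. Chil3, Klf1, Epb42, Kel, Hmox1, Glrx, Glrx3, Glo1, Me1 and Nat8 were chosen after their values were seen. So were the genes of the mast cell, basophil and eosinophil list. Alternatives were each array left out, a replicate block, 3 scalings, 2 gene filters, 2 variance settings and the mean of all probe sets of a gene.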

Additional observations from a re-analysis of the deposited data

How the results depend on the processing

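The Gstt1 difference lay between -1.65 and -1.45 and the Gstt1 difference against the other measured members between -1.74 and -1.45 under every alternative that gave a value, each within 1 SD between arrays of the reported value. Leaving out 1 array gave the same ranges. Over all members and that contrast, 126 of 130 values stayed within 1 SD, and 2 had the other sign, Gsta4 (0.06) and Mgst3 (0.12) without WT replicate 2. Many of the 130 could not move. The variance settings and gene filters leave a difference unchanged by construction, and the mean of all probe sets returned the members' reported differences. The replicate block gave the same differences as leaving out Polg mutant replicate 3. The count is therefore not a measure of robustness. The filter for genes above a log2 of 6 and the filter for 5 distinct values left out some members, so they gave no value for the contrast with the other members. Genes past the adjusted threshold, 0 higher and 0 lower as reported, numbered 10 and 2 after renewed quantile normalization, 7 and 1 after centring on brighter genes, 6 and 5 among genes above a log2 of 6, 73 and 41 among genes with 5 distinct values, and 4 and 1 without moderation. Leaving out 1 array gave 0 to 713 higher and 0 to 1068 lower; the extremes came without WT replicate 1, and without WT replicate 2 there were 511 and 413. Those 2 fits take the spread of the single WT array left from the Polg mutant group. Glutathione pathway genes past the threshold numbered 0 as reported, 1 (Slc7a11) under quantile normalization, under brighter-gene centring and among genes above a log2 of 6, and 3 (Slc7a11, Cth and Chac1) among genes with 5 distinct values. With 1 array left out there were 0 to 3 such genes, 0 to 2 of the other family genes (Gstm2 and Gstm4, without WT replicate 1) and 0 to 3 of the neighbours of Gstt1. The cause of these changes in count was not tested. With the replicate block the counts stayed at 0 and the Gstt1 difference was -1.65; the numbers are not stated to pair the samples, the deviations of same-numbered arrays correlated at 0.19 and -0.20, and no call was changed. The scalings moved the median of all genes by no more than 0.017.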

Other observations

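Hmox1, the heme-degrading enzyme gene and an NRF2 and BACH1 target, read 8.56 on Polg mutant replicate 1 and 5.88 on the other 2 Polg mutant arrays, against 5.22 and 5.42 in WT arrays. The groups did not overlap, with a gap of 0.461. The size of the Hmox1 difference, 1.46 ± 1.04 (SE, limma adjusted p = 0.638), rested mainly on the array that was also highest for Gstp1, Gsto1, Gstm1 and Mgst1. Glrx, a cytosolic glutaredoxin gene, read 10.24, 11.08 and 9.28 in Polg mutant arrays and 8.04 and 9.94 in WT arrays, with groups that overlapped. The neutrophil marker means were 8.25, 8.70 and 7.11 on the same Polg mutant arrays and 7.83 and 6.91 on the WT arrays. Glrx and these means ran in the same order within the Polg mutant group and in opposite order within WT. The relation between them was not tested. Epx and Gata2, 2 of the 6 mast cell, basophil and eosinophil markers, were higher on every Polg mutant array, as 8.36% of all genes were. Their differences were 0.62 ± 0.34 and 0.50 ± 0.27 (SE, limma adjusted p = 0.638 for both). The other 4 overlapped between the groups, with Prg2 and Mcpt8 higher on average by 0.57 and 0.49 and Cpa3 and Ms4a2 at differences of -0.25 and -0.06. The mean of those 6 markers was 8.06, 7.63 and 7.59 in Polg mutant arrays, against 7.44 and 7.46 in WT arrays.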
